A study of Bos taurus with 3 samples.

Results

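The bone marrow culture of this study held macrophage-like cells beside its stromal cells, and the following describes what those macrophage-like cells expressed. They were chosen on their own counts. A barcode of the marrow library belonged to them if it held at least 1000 UMIs (unique molecular identifiers, each standing for 1 captured transcript), if 20 myeloid genes together made up at least 1% of its UMIs, and if the collagen I genes COL1A1 and COL1A2 together made up under 0.2%. The 20 genes were CD14, CD68, CSF1R, PTPRC, TYROBP, FCER1G, AIF1, CTSS, C1QA, C1QB, C1QC, LYZ, MARCO, MSR1, CD163, SPI1, LAPTM5, CD53, CORO1A and ITGAM. The rule was met by 1213 of 10698 marrow barcodes of at least 1000 UMIs (11.3%, exact Clopper-Pearson 95% interval 10.7 to 12%), and the series held 20611 barcodes of that size in all. They were set against 8276 stromal barcodes of the same library, with at least 0.2% collagen I and under 1% myeloid UMIs. A further 14 barcodes met both shares and were called mixed, and 1195 met neither.

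The study profiled cultured mesenchymal stromal cells (MSCs) of Bos taurus by single cell 3′ RNA sequencing (10X Genomics). It had 1 library each from bone marrow, peripheral blood and adipose tissue, taken from 1 healthy Holstein-Frisian cow in its first lactation. Cells were wild type and untreated, and grew in low-glucose DMEM with 30% FBS, P/S and L-glutamine until colonies could be seen. The labels give MSC as the cell type of every library. The macrophage-like barcodes were chosen for myeloid genes and against collagen I, so that their departure from that label is set by the choice and is no finding.

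Macrophages are phagocytes of the innate immune system. They recognise microbes and dying cells with Fc, pattern recognition and scavenger receptors, break them down in acidic lysosomes with an oxidase at the membrane, and call in other leukocytes with chemokines. In marrow they arise from monocytes or live beside the blood-forming cells, where they clear nuclei and recycle iron. They attach to plastic as stromal cells do, and are therefore known companions of young MSC cultures.

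With 1 library per culture there was no replicate, so no test was possible and none is given. Levels are CPM, the UMIs of a gene summed over a group of barcodes, divided by all UMIs of that group and scaled to the usual CPM total. A difference is called when a ratio of CPM is at least 2 and the higher side has at least 50 CPM. Intervals are exact 95% intervals and cover counting error only. Because members were chosen on genes of the same cells, every value below is a description. The 22 genes of the rule were left out of all counts of genes.

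All 7 markers given for these cells were read in them. S100A12, a calgranulin of neutrophils and monocytes, stood at 15060 CPM in macrophage-like barcodes and 322 CPM in stromal barcodes. The other 6 markers belong to the rule and are given as levels. CTSS, a lysosomal protease, read 3619 CPM in macrophage-like against 75 CPM in stromal barcodes, LYZ (lysozyme) 2513 against 40.4, and TYROBP, a signalling adaptor, 1875 against 36.7. CD68, a lysosomal membrane protein, read 1639 CPM against 35.6, CD14, a receptor for bacterial lipopolysaccharide, 618 against 13.4, and CD163, a haemoglobin scavenger, 311 against 4.72. After each barcode was thinned to 1000 UMIs, S100A12 was found in 96.6% of macrophage-like barcodes (exact interval 95.4 to 97.6%) and 6.48% of stromal barcodes. The corresponding shares were 94.7% and 3.84% for CTSS, 82.7% and 2.21% for TYROBP, 47.1% and 0.98% for CD14, and 25.2% and 0.42% for CD163. Before thinning, with median depths of 4007 and 9121 UMIs, S100A12 was found in 99% and 22.4%, and CD14 in 82.6% and 6.78%. The stromal class was limited to under 1% myeloid UMIs, so for the rule genes the gap between the classes was set by the choice of barcodes and supports nothing. MARCO, a scavenger receptor named in the rule, read 3.24 CPM and contributed next to nothing to membership.

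Defining genes of other blood lineages were nearly absent. In the neutrophil list, CSF3R, CXCR2, ELANE, LTF, MMP8, PGLYRP1, CATHL2 and CATHL3 had 0 UMIs in 5550885, and the 9 genes found summed to 0.18 CPM. CSF3R, CXCR2, ELANE and MMP8, and CD4 of the T cell list, also read 0 CPM in stromal barcodes and free RNA. Whether this library could read them was not tested. For T cells, CD3D, CD3G, CD2, CD5, CD4, CD8A and LCK were at 0, but the interleukin 7 receptor IL7R read 463 CPM in macrophage-like barcodes and 7.21 CPM in stromal barcodes. NKG7, a granule protein of cytotoxic lymphocytes, read 397 CPM against 8.40 CPM, while GZMA, GZMB, PRF1, KLRB1 and KLRD1 were at 0. Among dendritic cell genes, FLT3, XCR1, CLEC9A, CCR7 and LAMP3 were at 0, with BATF3 at 43.1 CPM and CD1E at 38.0 CPM. B cell, mast cell, erythroid and progenitor lists summed to between 3.78 and 9.91 CPM. The endothelial list summed to 87.4 CPM, of which von Willebrand factor (VWF) made up 82.3, with KDR, CLDN5, EMCN, ESAM and SELE at 0. IL7R, NKG7 and VWF were thus read without the other genes of the lineages they are usually taken to mark. Of the osteoclast genes, those that macrophages share were high, cathepsin K (CTSK) at 1049 CPM and tartrate-resistant phosphatase (ACP5) at 250 CPM, against 326 and 5.20 CPM in stromal barcodes, while the calcitonin receptor CALCR was at 0 and the fusion proteins OCSTAMP and DCSTAMP read 24.0 and 7.93 CPM.

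Stromal transcripts in the members were few. Of the 1213 barcodes, 789 (65.0%) had 0 UMIs of collagen I. The other 14 stromal markers had a median share of 0% in macrophage-like barcodes and 0.456% in stromal barcodes, and 3 members reached the 5th percentile of the stromal barcodes (0.219%). Stromal genes bounded the part of the members' summed UMIs that free RNA can make up. The bound takes the RNA of barcodes of 10 to 100 UMIs to be what fills droplets. By COL6A1, a collagen VI chain, that part was at most 1.60%, by FN1 (fibronectin) 4.60%, and the median over 9 genes was 2.45%. These values are for the pooled members, and a single barcode can hold more. In the other direction, 397 of the 8276 stromal barcodes held 0.1 to 1% myeloid UMIs. Against the 7879 with under 0.1%, a comparison added after seeing the data, the log2 ratio of S100A12 was 8.88 in place of 5.55. That of LYZ was 9.83 in place of 5.96. LYZ counts in the myeloid share that picked these barcodes, so its rise was set by the choice. The ratio of S100A12, which is outside the rule, was thus lower over all stromal barcodes than over the cleaner ones. Of barcodes of at least 1000 UMIs, marrow shared 13 sequences with blood and 12 with adipose tissue. They included 4 members, none of them a macrophage-like barcode in the other library.

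Most macrophage-like barcodes were small. Their total UMIs had a lowest value of 1028, a 10th percentile of 2071, a median of 4007, a 90th percentile of 7558 and a highest value of 20628, while stromal barcodes had a median of 9121. The usual order-of-magnitude threshold for calling cells, 10 times below the 99th percentile of the top 3000 barcodes, lay at 4414 UMIs in this library. It would drop 706 of the 1213 members (58.2%). Between 1000 UMIs and that threshold members were 49.8% of 1417 barcodes, and at or above it 5.46%, or 507 barcodes. Among 296 barcodes of 500 to under 1000 UMIs, 32 (10.8%) met the myeloid and collagen limits of the macrophage-like rule. A member had a median of 1383 genes, against 2805 in a stromal barcode.

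**Figure D1:**
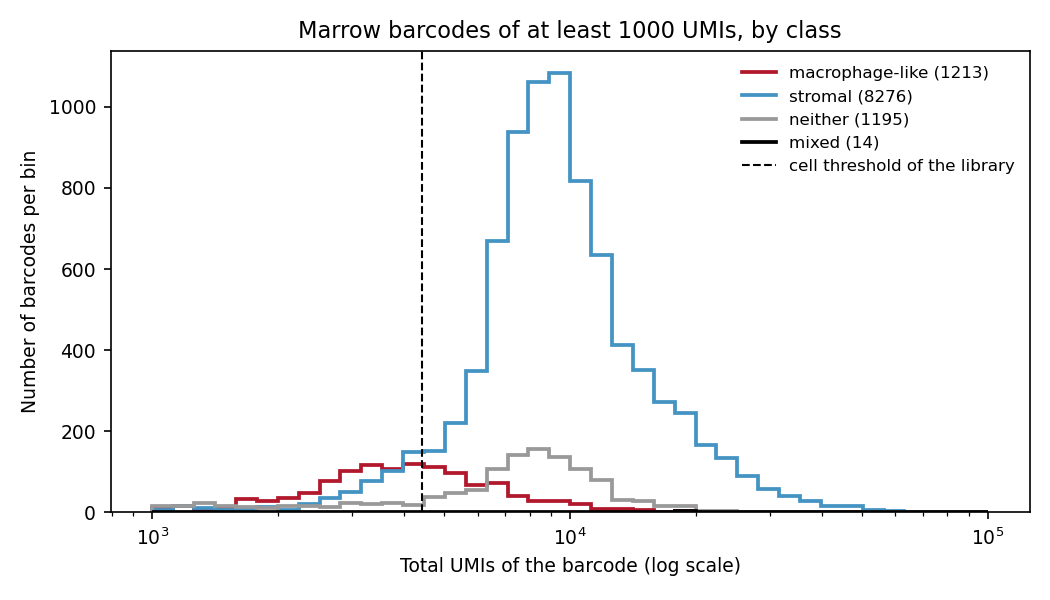
Number of marrow barcodes (y axis) by total UMIs (x axis, log scale) for the macrophage-like, stromal, neither and mixed classes, with the cell threshold of 4414 UMIs as a dashed line. The macrophage-like barcodes peak left of the stromal ones, with 706 of 1213 below the threshold.

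The myeloid share of members had a median of 1.63%, a 5th percentile of 1.12% and a 95th percentile of 2.34%, and reached 3.41%. Just inside the limit, 104 barcodes of low collagen held 1 to 1.2% myeloid UMIs. Just outside it, 41 held 0.8 to 1%, with a median of 3221 UMIs and no UMI of the 14 stromal markers in the median barcode. On the collagen side, 7 barcodes of at least 1% myeloid UMIs held 0.1 to 0.2% collagen I and 10 held 0.2 to 0.4%.

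The members' transcriptome was narrow and dominated by the iron store. The ferritin heavy chain FTH1 read 180599 CPM in macrophage-like barcodes and 5890 CPM in stromal barcodes (30.7-fold, 30.6 to 30.8), which is 18.1% of all member UMIs. With the light chain FTL, at 28928 CPM against 3878 CPM, ferritin made up 21.0%. In the members 101 genes held 50% of the UMIs, against 234 genes in stromal barcodes. Other abundant transcripts were the class I light chain B2M at 12129 CPM against 1556 CPM, the actin-binding thymosins TMSB4X and TMSB10 at 11059 and 9468 CPM against 10106 and 5713 CPM, and osteopontin (SPP1), a secreted bone and macrophage phosphoprotein, at 6941 CPM against 1242 CPM. The cathepsin inhibitor CSTB stood at 5291 CPM against 926 CPM. Ribosomal protein genes took a median of 9.5% of a member's UMIs and 24.4% of a stromal barcode's, and mitochondrial genes 2.66% and 2.47%. FTH1 has near-identical copies in mammalian genomes, so that its count may be shared among them.

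Of 3463 genes with at least 50 CPM in either group, 618 (17.8%) were at least 2-fold higher in macrophage-like barcodes and 1358 (39.2%) at least 2-fold lower, with a median log2 ratio of −0.68. CPM are shares of a total that ferritin fills in part. TMM factors, which scale to the bulk of genes, moved every log2 ratio up by 0.29 and gave 724 higher and 1002 lower genes, so that 41.9% of the called genes were higher, against 31.3% without them. List medians below are to be read against −0.68, on the scale before TMM factors. A gene that was measured only through its level in the members was bound to be higher there, so these counts support nothing beyond the levels.

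Among regulators and receptors for growth factors, every measured gene was on the members' side. The 5 measured regulators were all at least 2-fold higher (median log2 ratio 3.58), of 20 found. The other 15 were below 50 CPM in both groups or belonged to the rule. CEBPD, a myeloid transcription factor, read 341 CPM in macrophage-like against 57.7 CPM in stromal barcodes, and TFEC, of the family of lysosomal regulators, 115 against 1.82 CPM (63.2-fold, 53.0 to 75.6). The liver X receptor NR1H3, which senses oxysterols, read 115 against 18.7 CPM. Of receptors, TNFRSF1B for tumour necrosis factor read 159 against 16.5 CPM and IFNGR1 for interferon gamma 186 against 35.7 CPM. The receptor for colony stimulating factor 1, CSF1R, is a rule gene and stood at 130 CPM. All 3 measured chemotaxis receptors were higher in the members, of 10 found. C5AR1, which binds C5a, read 338 CPM against 5.85 (57.9-fold, 52.5 to 63.9) the CXCL12 receptor CXCR4 247 against 5.13, and the platelet-activating factor receptor PTAFR 54.0 against 1.27, while CCR2 and CX3CR1, the receptors that mark circulating monocytes in mouse and human, had 0 UMIs.

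Receptors for particles were read across families. All 8 measured Fc receptors and adaptors were at least 2-fold higher in the members (median 4.78), of 13 found. The activating FCGR3A read 82.1 CPM in macrophage-like against 1.58 CPM in stromal barcodes, the inhibitory FCGR2B 98.9 against 2.29, and TREM2, a receptor for lipids and dying cells, 212 against 4.37. The kinase LYN, which signals below these receptors, read 273 against 15.6 CPM. Among pattern recognition genes 7 of 8 measured were higher, of 23 found. They included the Toll-like receptors TLR2 (161 against 5.04 CPM) and TLR4 (73.9 against 4.37), the lectin receptors CLEC12A (205 against 3.43) and CLEC6A (153 against 2.68), and the inflammasome adaptor PYCARD (286 against 19.1). Of 9 measured scavenger receptors 7 were higher and 1 lower (median 5.36), of 20 found. CD36, which takes up oxidised lipid, read 1767 against 33.6 CPM (52.6-fold, 50.4 to 54.8), the mannose receptor MRC1 148 against 2.57, VSIG4, a complement receptor of resident macrophages, 213 against 3.79, and the folate receptor FOLR2 300 against 6.95. SIGLEC1, a marker of resident marrow macrophages in mouse, read 0.18 CPM, and LYVE1 and CD209 had 0 UMIs.

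All 5 measured subunits of the NADPH oxidase, which makes superoxide at the phagosome, were higher in the members (median 5.69). The catalytic subunit CYBB read 600 CPM in macrophage-like and 10.3 CPM in stromal barcodes and its partner CYBA 1057 against 29.4. Of 24 measured lysosomal genes 23 were higher and none lower (median 3.10), of 32 found. Cathepsin D (CTSD) read 3470 against 185 CPM, cathepsin B (CTSB) 2779 against 115, legumain (LGMN) 2696 against 94.0, progranulin (GRN) 1858 against 75.2 and the acid lipase LIPA 2098 against 64.7 CPM. Cathepsin L (CTSL), a common macrophage protease, read 0.18 CPM, and whether this library could read it was not tested. Inducible nitric oxide synthase (NOS2) read 5.58 CPM and arginase 1 (ARG1) had 0 UMIs.

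Among antimicrobial genes the calgranulins were highest. S100A8 and S100A9, which form calprotectin, read 3836 and 3032 CPM in macrophage-like barcodes against 82.8 and 62.3 CPM in stromal barcodes. The 3 calgranulins together made up 2.19% of member UMIs. The beta-defensins followed, DEFB4A with 2316 against 52.0 CPM and TAP, the tracheal antimicrobial peptide of cattle, with 335 against 6.64 CPM. SLC11A1, the metal transporter of the phagosome, read 848 against 17.9 CPM, and RNASE6, an antimicrobial ribonuclease, 814 against 16.8. All 7 measured genes of the list, which does not hold TAP, were higher (median 5.55), of 23 found. The cathelicidins CATHL2, CATHL3, CATHL4 and CATHL6, as well as LTF and LCN2, had 0 UMIs. In free RNA of the library S100A12 stood at 5532 CPM, LYZ at 323 CPM and CTSD at 373 CPM, so that S100A12 was the nearest of the 3 to its level in the members.

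**Figure D2:**
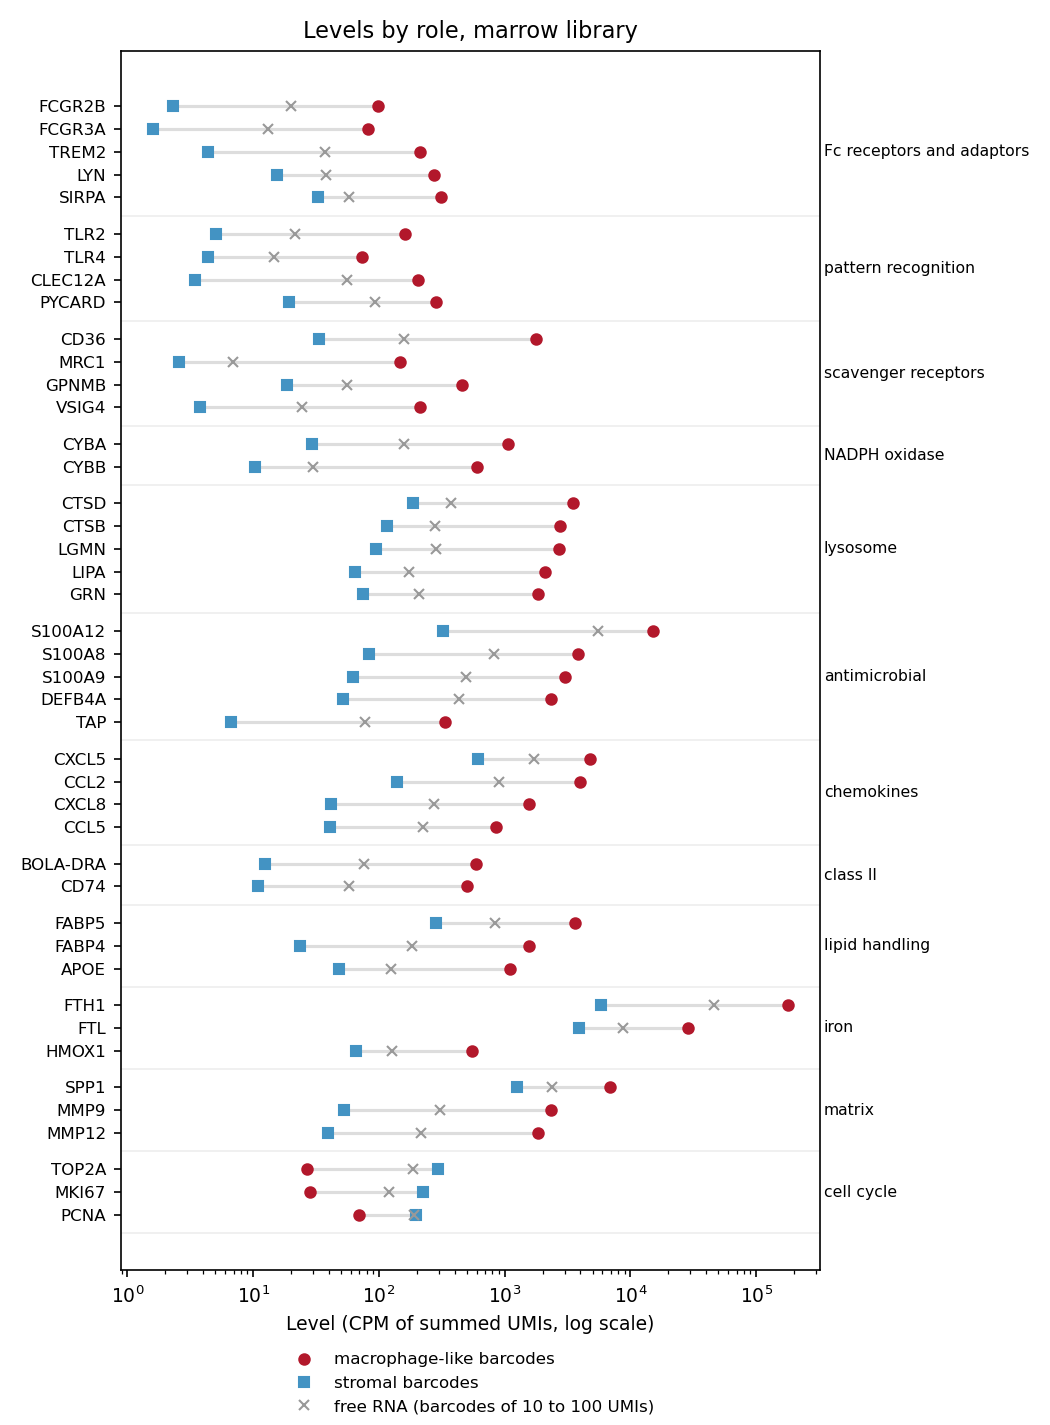
Levels (x axis, CPM of summed UMIs, log scale) of genes grouped by role in macrophage-like barcodes, stromal barcodes and free RNA of the marrow library. Macrophage-like levels lie to the right for every group except the cell cycle, where TOP2A reads 26.8 CPM against 295 CPM, and free RNA lies between the classes.

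Of secreted signals, chemokines were abundant and cytokines scarce. Among 11 measured chemokines 10 were at least 2-fold higher in the members and 1 lower (median 4.55), of 19 found. CXCL5, which attracts neutrophils, read 4743 CPM in macrophage-like and 614 CPM in stromal barcodes, and CXCL8, with the same action, 1556 against 41.8. CCL2, the main monocyte attractant, read 3993 against 140 CPM, and CCL8, a relative of it, 110 against 1.22 CPM (90-fold, 73.2 to 112). Among genes outside the rule with a symbol and at least 100 CPM in members, mitochondrial and ribosomal protein genes left out, this ratio was the highest. That ranking is over all stromal barcodes. Over those with under 0.1% myeloid UMIs the log2 ratio of S100A12 rose from 5.55 to 8.88, so the order need not hold there. CXCL12, a homeostatic chemokine of stroma, was the lower one, at 1.8 CPM. CXCL5, CXCL2 and GRO1, and likewise CCL3 and CCL4, are close relatives whose reads may be shared. Of 8 measured cytokines and growth factors 2 were higher and 5 lower (median −2.52), of 30 found: interleukin 1 beta (IL1B) read 85.6 against 2.42 CPM and its antagonist IL1RN 66.8 against 8.04, while VEGFA read 30.1 against 233 CPM. Tumour necrosis factor (TNF) read 3.24 CPM, interleukin 10 (IL10) 10.3 CPM and interleukin 6 (IL6) 13 CPM. The chemokines CXCL9 and CXCL10 and the enzyme IDO1, which interferon gamma raises in human macrophages, read 3.06, 0 and 0 CPM.

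Antigen presentation was read through class II and through B2M. All 6 measured class II genes were higher in the members (median 5.54), of 11 found. BOLA-DRA, an alpha chain, read 595 CPM in macrophage-like against 12.4 CPM in stromal barcodes, the invariant chain CD74 505 against 10.9, and BLA-DQB 457 against 9.36. The class II regulator CIITA read 0.901 CPM. The co-stimulatory ligand CD86 read 95.3 against 1.63 CPM, and CD80 1.08 CPM. Class II genes are polymorphic and alike, so that reads may be split among them. Of 6 measured interferon-induced genes 5 were higher, led by IFI6 at 1147 against 61.9 CPM and MX2 at 160 against 2.75.

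Lipid and matrix genes set the members apart as well. Of 9 measured lipid handling genes 7 were higher and 2 lower (median 3.68), of 14 found. The fatty acid carriers FABP5 and FABP4 read 3642 and 1548 CPM in macrophage-like barcodes, against 284 and 23.5 CPM in stromal barcodes, and for FABP4 this was 65.8-fold (62.7 to 69.0). The lipid transporter APOE read 1105 against 48.3 CPM and the lipid droplet coat PLIN2 1248 against 391. All 8 measured sterol synthesis genes were at least 2-fold lower in the members (median −1.83), of 14 found. Of 16 measured matrix remodelling genes 11 were higher and 4 lower. The gelatinase MMP9 read 2341 against 52.3 CPM and the macrophage elastase MMP12 1849 against 39.0, while MMP2, the gelatinase of stroma, read 21.1 against 680 CPM. The median log2 ratio of glycolysis genes, −0.24, was smaller than the shift by TMM factors and gives no direction. The haem oxygenase HMOX1, which frees iron from haem, read 553 against 65.5 CPM, and the iron exporter SLC40A1 36.2 against 17.4.

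Cell cycle genes were low in the members. Of 12 measured S phase genes 10 were at least 2-fold lower in macrophage-like than in stromal barcodes (median −1.87), and of 16 measured G2 and M phase genes all 16 were lower (median −3.47). TOP2A, a topoisomerase of dividing cells, read 26.8 CPM against 295 CPM and the proliferation antigen MKI67 28.5 against 223. Vimentin (VIM), an intermediate filament of both cell types, read 3418 against 11638 CPM.

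The blood culture held 288 barcodes that met the same rule (8.16% of 3530, 7.28 to 9.11%), with a median of 6215 UMIs. Calgranulins, DEFB4A, TAP and FABP4 were higher in marrow than in blood macrophage-like cells, and early-response genes, TNF and IL1A were higher in blood. Among 2880 measured genes, 117 (4.06%) reached a 2-fold higher CPM in marrow members and 233 (8.09%) at least 2-fold lower, with a median log2 ratio of −0.27. Of 10 measured chemokines 1 was at least 2-fold higher in marrow and 4 at least 2-fold lower. TMM factors moved every log2 ratio up by 0.28 and gave 174 higher and 141 lower genes, so that 55.2% of the called genes were higher, against 33.4% without them. The ratios of marrow to blood members printed as folds below were far larger than this shift, while genes given as alike or close were not. Counts of genes by list are on the scale before TMM factors. A gene measured only through its level in marrow or in blood members was bound to be higher there. These counts of genes therefore support nothing beyond the levels. Tissue, culture and library changed together between these groups, and their parts cannot be told apart.

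FABP4, the fatty acid carrier of adipocytes and macrophages, read 1548 CPM in marrow members and 1.04 CPM, from 2 UMIs, in blood members (1493-fold, 413 to 12334). TAP read 335 CPM in marrow members and had 0 UMIs in blood members, which makes it at least 216-fold higher against a floor of 3 counts over the blood group. The calgranulins differed in the same direction: S100A8 read 3836 CPM in marrow and 20.7 CPM in blood members (185-fold, 136 to 259), S100A9 3032 and 80.3 CPM (37.7-fold, 32.2 to 44.5), and S100A12 15060 and 690 CPM (21.8-fold, 20.7 to 23.1). LYZ, a rule gene, read 2513 and 97.4 CPM, and DEFB4A 2316 and 147 CPM. At 1000 UMIs per barcode, S100A12 was found in 96.6% of marrow and 40.3% of blood members, S100A8 in 73.0% and 2.43%, and FABP4 in 32.8% and 0%. CD24, a mucin-like surface protein, read 190 and 7.77 CPM, the stress regulator NUPR1 394 and 60.1, and the tetraspanin CD9 714 and 125 CPM. C1QB, a rule gene, was at 298 CPM in marrow and 44.1 CPM in blood members, although its partners C1QA (850 and 1054 CPM) and C1QC (249 and 242 CPM) were alike. VIM read 3418 and 664 CPM. Of 24 measured lysosomal genes 8 were higher in marrow and none lower, among them CTSB (2779 and 1112 CPM) and LIPA (2098 and 808 CPM), and of 7 lipid handling genes 5 were higher.

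**Figure D3:**
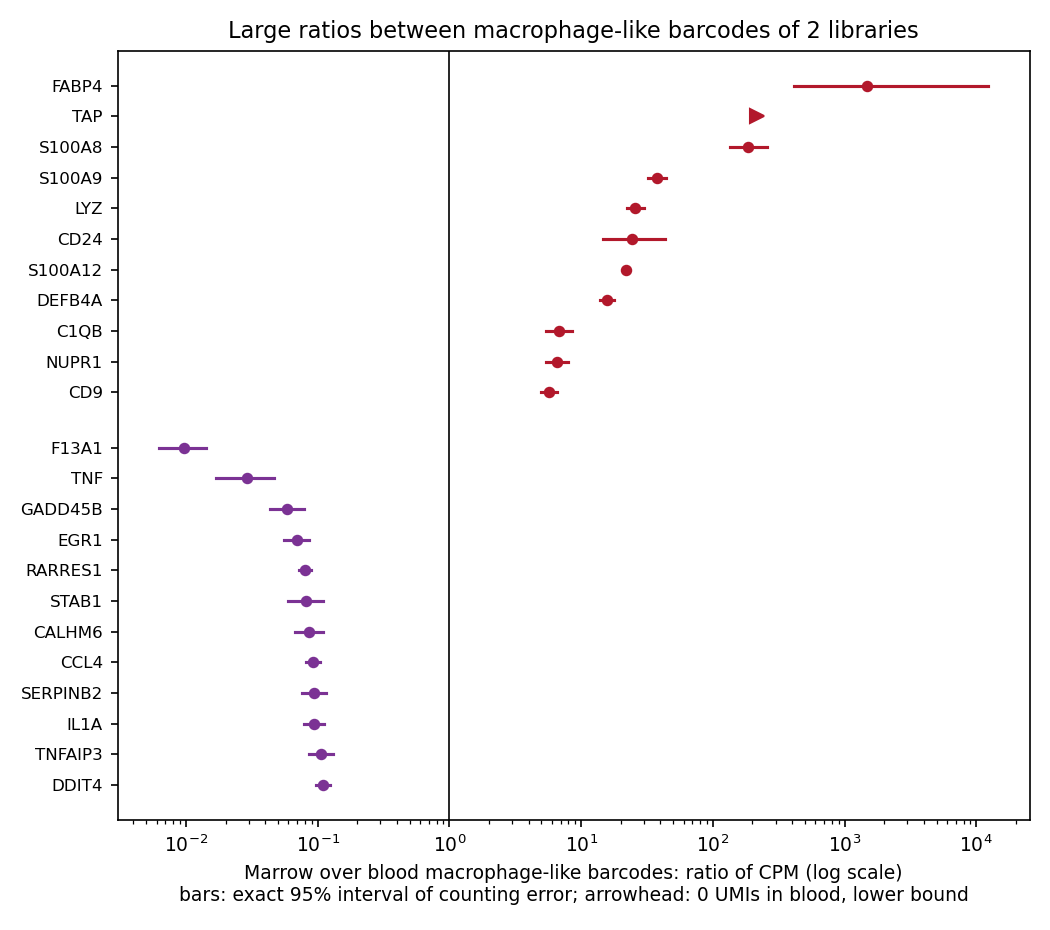
Ratio of CPM in marrow over blood macrophage-like barcodes (x axis, log scale) for genes of large ratio in each direction, with exact 95% intervals of counting error and an arrowhead for the gene with 0 UMIs in blood. FABP4 at 1493-fold and F13A1, 104-fold higher in blood, are the extremes.

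On the other side, the coagulation factor XIII subunit F13A1 read 4.68 CPM in marrow members and 487 CPM in blood members (104-fold higher in blood, 70.5 to 160). TNF read 3.24 and 112 CPM (34.5-fold, 21.3 to 59.4), IL1A 30.3 and 320 CPM, and CCL4, a chemokine for lymphocytes and monocytes, 67.4 and 731 CPM. TNF, IL1A and CCL4 are genes of activated macrophages. Of early-response genes, 14 were measured, of which none was higher in marrow and 11 were lower (median −2.33), among them EGR1 (18.7 and 269 CPM), FOS (73.3 and 429) and DUSP1 (158 and 678). Some of the 14, such as EGR1, were below 50 CPM in marrow members. They were measured only through blood, so their direction was set in advance. The NF-kappa B inhibitors TNFAIP3 and NFKBIA read 21.6 and 580 CPM in marrow and 203 and 1564 CPM in blood members. GADD45B and DDIT4, both stress-response genes, read 9.73 and 69.9 CPM in marrow members against 165 and 635 CPM in blood members. STAB1, a scavenger receptor, read 9.73 and 120 CPM, SERPINB2, an inhibitor of plasminogen activators, 20.9 and 221 CPM, RARRES1 81.6 and 1012 CPM, and CALHM6 15.3 and 178 CPM. Of 8 measured class II genes 5 were lower in marrow and none higher (median −1.41), with BOLA-DRA at 595 and 1516 CPM and CD74 at 505 and 1395 CPM. Over stroma only 6 class II genes were measured. The others of the 8 were thus measured through blood alone and bound to be lower in marrow. MMP9 read 2341 and 8026 CPM and THBS1 (thrombospondin 1) 440 and 1876 CPM. FTH1 (180599 and 155251 CPM), SPP1 (6941 and 6723 CPM), SRGN, the proteoglycan of leukocyte granules (2774 and 2836 CPM), and MX2 (160 and 160 CPM) were close in both.

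Small and large members differed in few genes, and those differed by degrees. Among 2473 measured genes, 17 (0.687%) had at least 2-fold higher CPM in the 706 members below the cell threshold than in the 507 at or above it, and 17 (0.687%) had at least 2-fold lower CPM. At 1000 UMIs per barcode, a median of 522.5 genes was found in the 110 members of 1000 to under 2000 UMIs, 509 in the 596 from 2000 UMIs to the threshold, and 511 at or above it. The myeloid share, which the rule limits in every bin, had medians of 1.65%, 1.59% and 1.69%. Of summed UMIs, FTH1 took 16.7%, 19.0% and 17.6% and mitochondrial genes 2.51%, 2.58% and 3.06%. The 14 stromal markers summed to 0.0123%, 0.00990% and 0.0135%. By these measures the small barcodes had as many genes at equal depth as the large ones, and no larger share of mitochondrial or stromal UMIs.

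CXCL5 declined with size, with 14267 CPM in members of 1000 to under 2000 UMIs, 7787 CPM in those up to the threshold and 2542 CPM at or above it (below over above, 3.27-fold, 3.19 to 3.35). MMP9 followed with 6207, 3382 and 1557 CPM, CXCL8 with 3209, 2127 and 1149 CPM, and the adhesive matrix protein THBS1 with 1279, 687 and 258 CPM. CXCL2, a relative of CXCL5, read 1015, 766 and 280 CPM, and the metallothionein MT2A 1208, 764 and 335 CPM. These genes, most of them of neutrophil recruitment or matrix, were highest where total UMIs were lowest. The free RNA of the library, from barcodes of 10 to 100 UMIs, held CXCL5 at 1707 CPM and MMP9 at 306 CPM, lower than each of the 3 bins.

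Other genes were higher in the large members, among them 2 of 7 measured antimicrobial genes and 1 of 7 measured lipid handling genes at 2-fold or more. S100A9 read 1590, 1364 and 4051 CPM in the small, middle and large members (large over below, 2.93-fold, 2.82 to 3.05) and DEFB4A 1361, 1187 and 3004 CPM. TAP read 117, 141 and 457 CPM, and FABP4 458, 647 and 2114 CPM (large over below, 3.35-fold, 3.16 to 3.55). Below 2-fold were S100A8 with 2523, 2358 and 4741 CPM, S100A12 with 11387, 10855 and 17630 CPM (1.62-fold) and APOE with 393, 735 and 1349 CPM. FABP4, TAP and APOE were ordered by size over all 3 bins, while S100A8, S100A9 and DEFB4A were slightly higher in the smallest bin than in the middle one and highest in the large members. The summed S phase list read 258, 239 and 571 CPM and the G2 and M phase list 188, 196 and 509 CPM. Each of these lists had 1 measured gene, which did not reach 2-fold, and sub-cluster 4, described below, held S phase genes at 2250 CPM against 234 to 312 CPM in the other sub-clusters. Total UMIs move with both gradients, and the part of cell size, of RNA content or of capture in them was not tested.

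**Figure D4:**
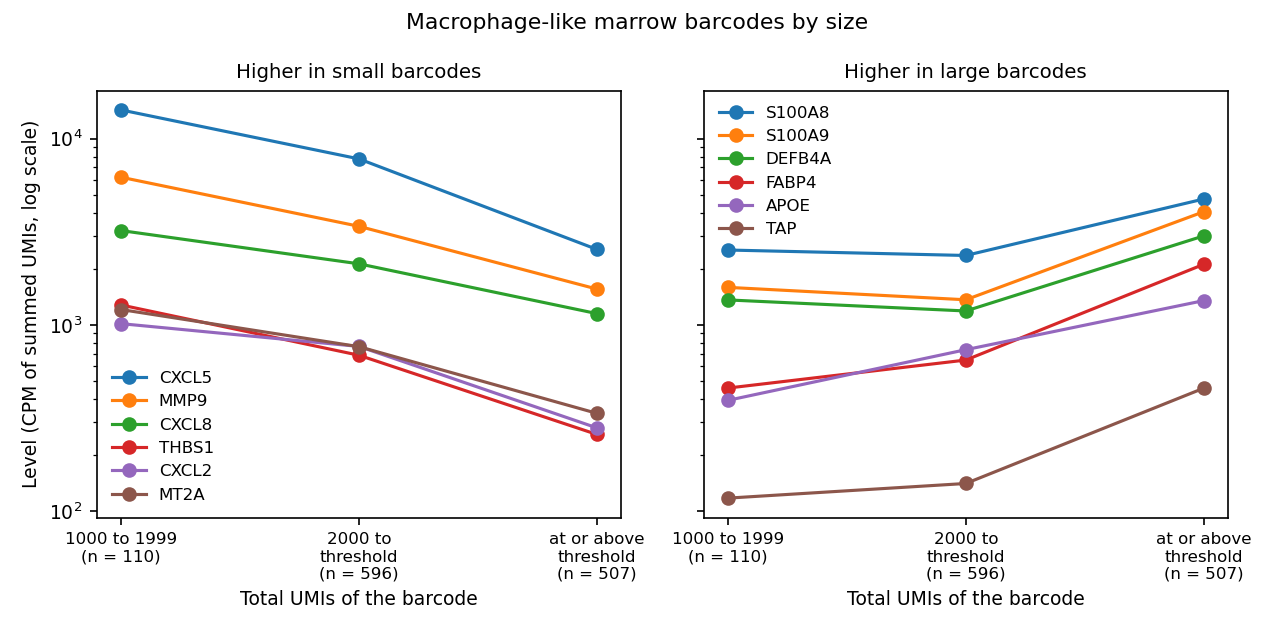
Levels (y axis, CPM of summed UMIs, log scale) of 12 genes in macrophage-like marrow barcodes of 1000 to under 2000 UMIs, 2000 UMIs to the cell threshold, and at or above it (x axis). CXCL5, MMP9, CXCL8, THBS1, CXCL2 and MT2A decline with size, and FABP4, APOE, S100A8, S100A9, DEFB4A and TAP are highest in the large barcodes.

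Single members differed most in a few secreted and calcium-binding proteins. With each barcode thinned to 1000 UMIs, the variance of a gene over barcodes was divided by the variance that Poisson sampling alone would give. Over 584 genes with a mean of at least 0.2 UMI this ratio had a median of 1.07, and 30 genes reached 2, so for most genes no spread between barcodes beyond sampling could be seen at this depth. SPP1 led with 19.1: per 1000 UMIs its 10th percentile was 0, its median 3, its 90th percentile 20 and its maximum 119, and 73.5% of members had at least 1 UMI. CXCL5 had a ratio of 15, with a 10th percentile of 0, a median of 3, a 90th percentile of 17 and a maximum of 81. Of the 1000 UMIs kept per barcode, both thus had 0 in some members and above 1% in others. FTH1 had a ratio of 9.71 but was in every member, with 133.2, 183 and 235 UMIs per 1000 at these percentiles. S100A12 had a ratio of 8.95, with 2, 10 and 28 UMIs. MMP9 (7.28), S100A9 (6.81), CCL2 (5.88) and FABP4 (5.07) came next. FABP4 was found in 32.8% of members with a 90th percentile of 5 UMIs.

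Genes of high ratio but low mean were confined to a few barcodes. The metallothionein MT1A had a ratio of 9.14 with UMIs in 2.64% of members and up to 25 in 1 of them, and CCL4 a ratio of 5.69 with UMIs in 4.37%. THBS1 (4.30) was found in 22.9% of members and cathepsin K, CTSK (3.58), in 37.1%. Blood members showed the same order at the top, SPP1 at 14.1 and CXCL5 at 13.3, whereas S100A12 was at 2.29 there. The ratio grows with the mean, and S100A12 read 690 CPM in blood against 15060 CPM in marrow members. Less spread of S100A12 in blood members was therefore not shown. Of whole lists, the antimicrobial genes spread most (15.9, with 6 UMIs per 1000 at the 10th percentile, 19 at the median and 53.8 at the 90th), then chemokines (13.8, with 3, 12 and 34) and matrix remodelling (13.4, with 3, 11 and 33). Fc receptors and adaptors (1.19), the NADPH oxidase (1.11) and regulators (1.06) were close to sampling alone. Pattern recognition genes stood at 1.30 and scavenger receptors at 1.38. The ratio grows with a list's mean, and at 3000 UMIs it was 1.51 for Fc receptors and adaptors, 1.63 for pattern recognition and 1.99 for scavenger receptors, so evenness of these lists over members was not shown.

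A pair of opposed gene sets ran through this spread. Spearman coefficients were computed for 300 pairs of 25 genes over the 1213 members at 1000 UMIs. The points share 1 library and 1 total, and the coefficients are a description. S100A12 went with S100A8 (0.71), S100A9 (0.70) and DEFB4A (0.43), and S100A9 with S100A8 (0.62). CXCL5 went with MMP9 (0.43), THBS1 (0.41) and CD14 (0.36). Between the sets the coefficients were negative, with CXCL5 against FABP4 at −0.40, LGALS3 (galectin 3) at −0.39 and S100A12 at −0.35, and S100A12 against MMP9 at −0.35. Total UMIs ran along the same line, at −0.42 with CXCL5, 0.36 with S100A8 and 0.35 with FABP4. Within the members at or above the threshold alone, the values were −0.30 for CXCL5 with FABP4, −0.33 for CXCL5 with S100A12 and 0.37 for CXCL5 with MMP9. The opposition was therefore present among the large barcodes too.

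Clustering of the members gave 5 sub-clusters, which are called by number. Sub-cluster 1 held 479 members (39.5%, 36.7 to 42.3%) with a median of 3327 UMIs and was led by THBS1, at 991 CPM against 136 CPM in the other members, CXCL5 (8960 against 2423), NRN1, EMB, ANTXR2, the leukocyte metalloprotease ADAM8 (580 against 238), BASP1 and CD14 (993 against 413). FABP4 (468 against 2143 CPM) and S100A9 (1356 against 3954) were its lowest genes. Sub-cluster 2 held 345 members (28.4%) with a median of 4829 UMIs. It was led by TAP (642 against 189 CPM), CDC42EP3, S100A9 (5277 against 1958), LYZ, LGALS3 (5354 against 2334), FABP4 (2478 against 1103) and MX2, while THBS1 and CXCL5 were 79.6 and 875 CPM against 612 and 6594. Sub-clusters 1 and 2 thus differed in the genes of the opposition described above. They also differed in size: sub-cluster 1 was 56.4% of members of 1000 to under 2000 UMIs and 23.9% of those at or above the threshold, and sub-cluster 2 was 17.3% and 41%.

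Sub-cluster 3, with 281 members (23.2%), was led by CCL2 (6376 against 3398 CPM), the endocytic adaptor DAB2 (336 against 181), CCL3, LGALS1 and MMP12, with ratios below 2. Its class II genes were low, BOLA-DRA at 262 against 678 CPM and BLA-DQB at 217 against 517. Sub-cluster 4, with 62 members (5.11%, 3.94 to 6.5%) and a median of 6581.5 UMIs, was led by MKI67 (296 against 5.67 CPM), PCLAF, CENPF, RRM2 and TOP2A (248 against 8.02), all genes of DNA replication and mitosis. It was 11.4% of members at or above the threshold and 0.503% of those from 2000 UMIs to the threshold. Its S100A9 stood at 6929 CPM and its FABP4 at 3300 CPM, the highest of the 5 sub-clusters, and its CXCL5 at 979 CPM. Its myeloid share had a median of 1.57%, and none of its barcodes had a high share of the 14 stromal markers. Sub-cluster 5, with 46 members (3.79%), was led by TM4SF1, the interleukin 18 binding protein IL18BP, CCL4 (642 against 41.4 CPM), MT1A, the stress factor ATF3, IL1RN, IL1B (458 against 68.7) and CCL3. Other settings gave between 2 and 10 clusters, and the division into 5 is 1 description among them. Their adjusted Rand indices, which measure agreement with the division into 5, were low, from 0.14 to 0.44. Sets led by CXCL5 and THBS1 on one side, and sets with S100A9 among their 8 leading genes on the other, were found under each of these settings. At resolution 0.3, and among members at or above the cell threshold alone, no set had MKI67 among its 8 leading genes. Among the latter a set of 90 members was led by STMN1, BRCA2 and SMC2. A set with CCL4 and IL18BP among its 8 leading genes was found at resolution 1.0 only. Whether the population is graded was not tested. Doublets of a macrophage and a stromal cell were limited by the collagen share alone, and doublets of 2 macrophages were not removed.

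**Figure D5:**
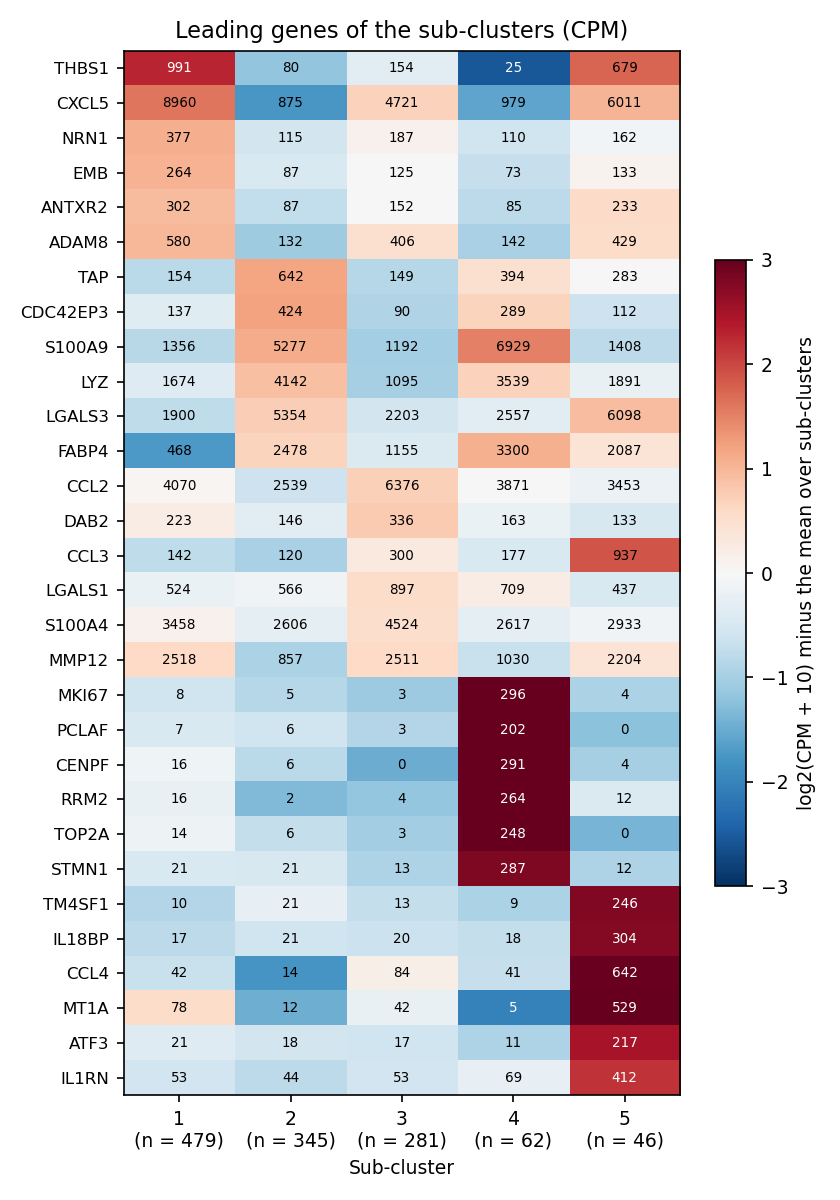
CPM (numbers in the cells) of leading genes in the 5 sub-clusters of macrophage-like marrow barcodes, coloured by log2(CPM + 10) minus its mean over sub-clusters. THBS1 and CXCL5 are highest in sub-cluster 1, TAP in sub-cluster 2, MKI67, TOP2A and FABP4 in sub-cluster 4, and CCL4 and MT1A in sub-cluster 5.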

How the data were processed

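The authors deposited raw UMI counts per gene and barcode for 3 libraries, unfiltered. Per the submitters' processing notes the tool was Cell Ranger 6.1.1 and the genome ARS-UCD1.2, while the file headers name Cell Ranger 4. From these counts, barcodes were classed by the rule and UMIs were summed per class and given as CPM. The marrow library held 106322567 UMIs over 1544969 listed barcodes. Intervals of ratios are exact conditional binomial, those of shares Clopper-Pearson. TMM factors came from edgeR 4.0.16 (R 4.3.3), used for scaling only. Thinning was to 1000 UMIs (numpy 2.4.6, Python 3.11.15). Sub-clusters came from Leiden clustering (scanpy 1.11.5, igraph 0.11.9) at resolution 0.5 with 1000 variable genes, 20 components and 15 neighbours. The code was tested on simulated data.

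The members and lists were chosen with earlier results of these data known. Of 653 entries in 43 lists, 614 were found. Genes named were the rule genes, the 7 markers, the 25 of highest CPM and of largest ratio over stroma, the 12 of largest ratio each way between marrow and blood, 8 leading genes per sub-cluster, the 15 of largest spread and list members of at least 50 CPM. Further list genes, read at low levels or at 0, were named after their values were seen. A gene that these rules pick is not reported here. No doublet caller was run.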

Additional observations from a re-analysis of the deposited data

Results flagged for a closer look

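The adipose culture, which the comparisons do not use, held 4 barcodes that met the macrophage-like rule, of 6383 with at least 1000 UMIs (0.0627%, Clopper-Pearson 95% interval 0.0171 to 0.160%). They had 1973, 3870, 3171 and 2366 UMIs and myeloid shares of 1.06%, 1.42%, 1.32% and 1.65%. Summed over them were 1106 UMIs of FTH1, 83 of S100A12, 29 of FCER1G, 21 of TYROBP and 16 each of CD14, CD68 and CTSS. None of the 4 shared its sequence with a barcode of at least 1000 UMIs in the marrow or blood library. The part of free RNA or of carry-over in them was not tested.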

How the results depend on the processing

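No paired analysis was possible because each culture has 1 library. Membership was 507 with the minimum at the cell threshold and 198 with a myeloid share of at least 2%, against 1213, and between 1103 and 1285 under the other limits tried. Macrophage-like over stromal, 1321 genes were higher and 2708 lower with at least 10 CPM, and 205 and 450 with at least 200 CPM. Marrow over blood, 267 and 708 were called with at least 10 CPM and 51 and 74 with at least 200 CPM. Scaling moved that comparison to 141 lower genes with TMM factors, and to 177 higher and 136 lower with median ratio size factors. With only the members below the cell threshold 456 genes were lower. Sub-clusters numbered 2 at resolution 0.3, 10 at resolution 1.0 and 3 after thinning to 1000 UMIs. Thinning to 3000 UMIs gave 59 genes, not 30, with a variance ratio of at least 2. The cause was not tested, except that a lower CPM limit measures more genes by construction.

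Of 55 named genes checked over stroma, 47 were past 2-fold, and all 47 kept a 2-fold ratio under every alternative run. Of 42 checked between marrow and blood, 32 were past 2-fold, and 28 of these kept it. Other genes given above were not in this check. None of these 47 and 32 genes changed direction under the alternatives run. Depth limits the small members most, since a gene read once in 1000 UMIs is often missed.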
